A study of Mus musculus with 20 samples.

Results

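The genes described are 10 markers of the 2 main non-parenchymal cell types that border the liver sinusoid: Lrat, Reln, Dcn, Des and Pdgfrb for hepatic stellate cells, and Stab1, Stab2, Lyve1, Clec4g and Pecam1 for sinusoidal endothelial cells. They were chosen by symbol, and each symbol matched 1 of the 25444 loci (24423 symbols) that the tables list. RNA was measured by sequencing in the left lateral liver lobe of 20 inbred wild-type mice aged 20 weeks, 5 females and 5 males of the strain C57BL/6N (B6) and 5 females and 5 males of the strain C3H/HeN (C3). The labels name no treatment or transgene for any group. All mice ate the same diets and were caged singly, but the sexes lived in separate rooms, so that sex and room cannot be told apart. The libraries were made from ribosomal RNA-depleted total RNA with strand information and were sequenced in 3 pools of 8, 5 and 7 libraries.

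Stellate cells lie between the hepatocytes and the sinusoid, store most of the body's vitamin A as retinyl esters, and turn into matrix-producing myofibroblasts when the liver is injured. Sinusoidal endothelial cells form the fenestrated wall of the sinusoid and clear hyaluronan, modified proteins and other waste from the blood through scavenger receptors and lectins. Whole tissue was sequenced, so a marker that differs between groups may mean a different number of cells of its type or a different amount of its RNA per cell, and these cannot be told apart here.

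Promoter sequence was read for the members in the RefSeq promoter table (GRCm38.p6, C57BL/6J), which holds 6 of the 10. The 250 bases before the transcription start are shown 5′ to 3′ on the gene's strand for Reln, Stab2 and Clec4g, the members whose B6 female and male livers did not overlap, and for Lrat, the member that varied most between livers. Capitals mark a match on either strand to 1 of 4 motifs. These were AGATAA for the GATA factors, AGGAAG for the ETS factors, TATAAA for the TATA box and CCAAT for the box of that name. The C3 sequence was not read.
Lrat, chr3:82903975-82904224, minus strand: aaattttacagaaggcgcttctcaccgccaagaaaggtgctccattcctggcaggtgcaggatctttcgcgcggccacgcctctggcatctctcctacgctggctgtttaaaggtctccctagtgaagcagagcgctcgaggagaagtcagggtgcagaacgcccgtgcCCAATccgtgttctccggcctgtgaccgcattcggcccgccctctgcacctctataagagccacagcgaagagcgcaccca
Reln, chr5:22344706-22344955, minus strand: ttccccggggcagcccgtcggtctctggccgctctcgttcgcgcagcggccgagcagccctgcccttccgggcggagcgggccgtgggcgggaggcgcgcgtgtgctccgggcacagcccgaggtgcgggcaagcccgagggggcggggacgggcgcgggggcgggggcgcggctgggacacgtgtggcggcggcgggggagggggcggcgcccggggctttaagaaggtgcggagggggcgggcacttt
Stab2, chr10:87007943-87008192, minus strand: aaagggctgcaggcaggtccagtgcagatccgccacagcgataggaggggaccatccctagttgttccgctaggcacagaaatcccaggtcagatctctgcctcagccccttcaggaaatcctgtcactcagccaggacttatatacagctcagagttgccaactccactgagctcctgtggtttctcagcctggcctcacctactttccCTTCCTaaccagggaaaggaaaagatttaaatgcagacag
Clec4g, chr8:3720652-3720901, minus strand: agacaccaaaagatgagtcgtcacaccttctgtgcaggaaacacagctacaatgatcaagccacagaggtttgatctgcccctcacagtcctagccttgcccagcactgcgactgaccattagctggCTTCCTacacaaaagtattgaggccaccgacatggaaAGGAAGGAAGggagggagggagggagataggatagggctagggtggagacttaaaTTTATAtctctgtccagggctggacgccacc

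The 3 endothelial promoters read (Stab1, Stab2 and Clec4g) each held at least 1 ETS match, and the 3 stellate promoters (Lrat, Reln and Des) held none. Stab2 had 1 match on the other strand, at bases -40 to -35 from the start, and Stab1 had 1 at -116 to -111. Clec4g had 3, of which those at -86 to -81 and -82 to -77 overlap. The ETS letters occur in 29.5% of the 32851 promoter windows of this length in the table, the CCAAT letters in 33.8%, the TATA letters in 12.4% and the GATA letters in 9.99%. Clec4g was also the only one of the 6 with a TATA match, on the other strand at -31 to -26. Lrat had a CCAAT match at -81 to -77, and Stab1 had one at -221 to -217. No GATA match was found, and the promoters of Reln and Des held none of the 4 motifs. G and C made up 80.0% of the Reln promoter and 59.2% of that of Lrat, against 53.2% for Stab2 and 52.0% for Clec4g, and the median over all windows was 52.4%. These matches describe letters in the window and say nothing of which factor binds there.

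Each library held between 27370921 and 46835745 counts, and the libraries of pool 3 were the deepest. Values for 1 gene across livers are counts scaled to a fixed library total (CPM) after TMM normalization, and values that set genes beside each other are TPM, which divides by gene length. The least counted member, Des, had at least 92 counts in every library and the most counted, Reln, up to 11246, so all 10 passed the filter on low counts and none was at 0. Of the hepatocyte markers, Alb (albumin) averaged between 66015 and 122610 CPM in the groups, against at most 228 CPM for a member. Means are over 5 mice per group with their SD. Each comparison used edgeR's quasi-likelihood fit with terms for group and for pool across the 20 libraries, and p-values were adjusted over the 13704 genes tested. A gene was called, by the thresholds of the study, at an adjusted p under 0.001 with an absolute log2 fold change over 0.5, and members past an adjusted p of 0.05 were counted as well.

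Dcn and Clec4g led the 2 lists in level. Dcn, which encodes the matrix proteoglycan decorin and is also made by portal fibroblasts, had a median of 189 TPM and lay between 126 and 282 TPM in the 20 livers. Clec4g, a C-type lectin of the sinusoidal wall, had a median of 125 TPM and was below Dcn in all 20. Stab2 (36.9 TPM), Reln (29.9), Pecam1 (17.4), Lrat (14.0), Stab1 (13.8), Lyve1 (5.78), Pdgfrb (4.49) and Des (2.63) followed in median TPM. Lrat and Stab1 could not be ordered, since Lrat was above Stab1 in 10 of 20 livers. Each other neighbour in this order was above the next in at least 16 livers, although only Clec4g and Stab2 had ranges that did not overlap. The highest liver was between 1.60 and 2.30 times the lowest in CPM for 8 members, 3.62 times for Lyve1 and 4.47 times for Lrat.

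**Figure D1:**
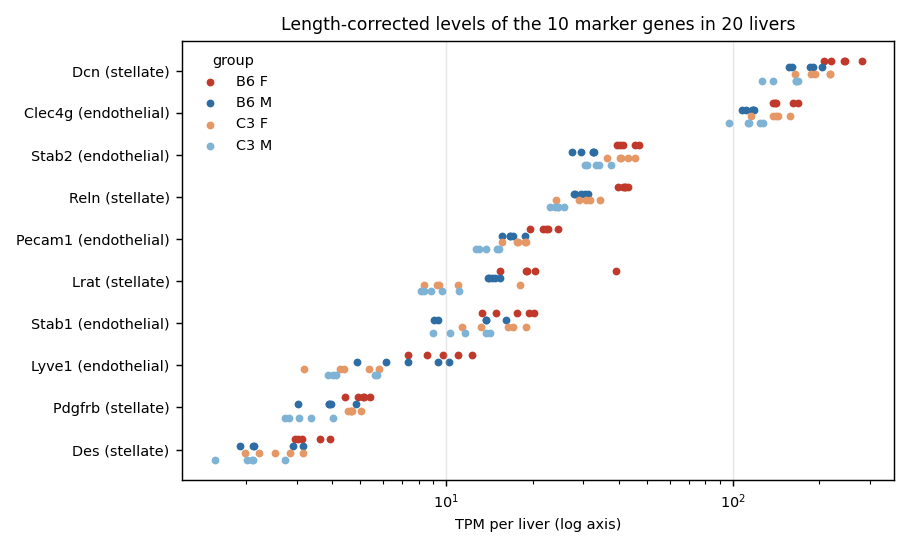
Length-corrected level (TPM, log axis) of each marker gene in the 20 livers, one point per liver, coloured by group and ordered by the median over all livers. Dcn and Clec4g stand above the rest, and 1 B6 female lies apart from all other livers for Lrat, at 38.9 TPM.

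Females had higher levels of most members in both strains, by modest amounts. In B6 all 10 log2 fold changes of female against male were above 0, with a median of 0.32 and a range of 0.24 to 0.52, and in C3 9 of 10 were, with a median of 0.23. Over all genes tested, 50.2% and 51.9% were above 0, with medians of 0.0018 and 0.015. No member was called in either strain, where 6.34% and 6.90% of all genes were, and DESeq2 called none. At an adjusted p under 0.05, however, 8 of 10 members were higher in B6 females and 7 of 10 in C3 females, where 16.2% and 20.1% of all genes were. None was lower, where 18.4% and 19.9% of all genes were. The sexes did not overlap for 3 members in B6 (Reln, Stab2 and Clec4g) and 1 in C3 (Pdgfrb), females being higher, as was so for 5.79% and 7.38% of all genes. At an unadjusted p under 0.05 there were 9 and 7, where 44.4% and 49.0% of all genes had such a p in either direction. Without pool in the model the counts past 0.05 fell to 2 (Reln and Stab2 in B6) and 1 (Pdgfrb in C3). On the TPM scale with a pseudocount of 0.1 the median over all genes tested was itself higher in females, by 0.11 in B6 and 0.12 in C3 (log2).

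**Figure D2:**
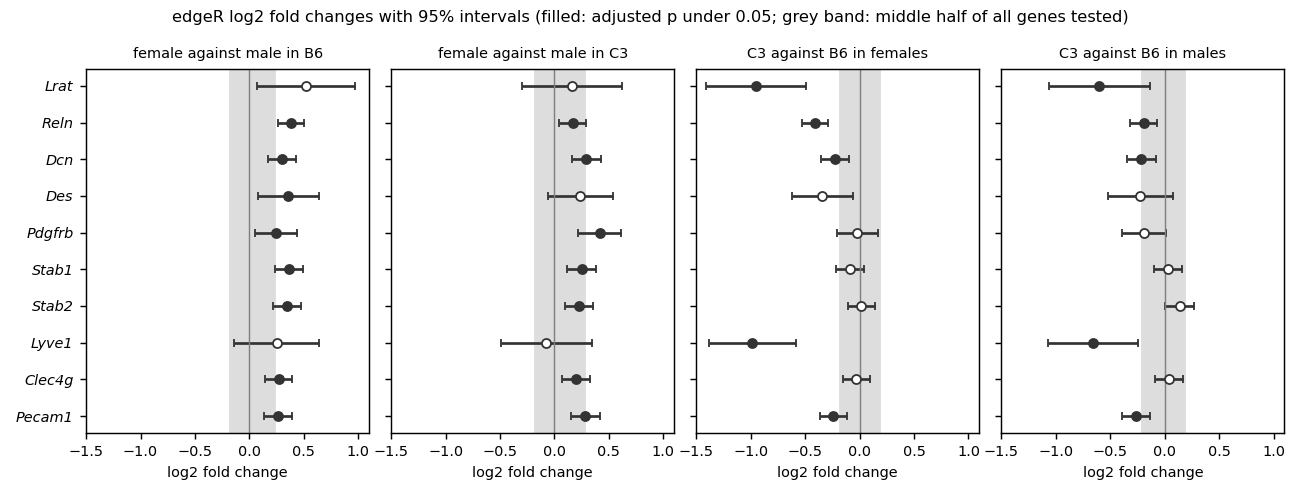
Log2 fold change of each marker gene in the 4 comparisons with its 95% interval from edgeR, filled where the adjusted p was under 0.05, with the grey band spanning the middle of the distribution over all genes tested, from its lower to its upper quartile. Most members sit to the right of 0 in both sex comparisons, whereas Lrat and Lyve1 are far to the left in both strain comparisons.

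Among the stellate members, Reln had the smallest p for sex in B6. It encodes reelin, a secreted glycoprotein of the extracellular matrix (gene 19699, chr5:21390272-21850523 in mm9, minus strand). The B6 females had 221, 215, 228, 226 and 207 CPM and the B6 males 161, 171, 179.8, 167 and 163 CPM. The lowest female was above the highest male, and the fitted log2 fold change was 0.38 ± 0.058 (SE, edgeR adjusted p = 6.0e-05). The C3 females had 161, 170.5, 186, 141 and 170.3 CPM and the C3 males 144, 154, 139.5, 147 and 145 CPM. These groups overlapped through 1 low female, and the difference was 0.17 ± 0.059 (edgeR adjusted p = 0.0301, past 0.05 in 20 of 30 other settings).

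Dcn (gene 13179, chr10:96942134-96980797, plus strand) was higher in females of both strains by nearly the same amount. The B6 females had 204, 192, 239, 277 and 229 CPM and the B6 males 197, 213, 163, 158 and 195 CPM. The C3 females had 193, 181, 159.9, 229 and 217 CPM, and the C3 males 181, 178, 185, 136 and 147 CPM. The sexes overlapped in both strains before pool was taken into account, and within each pool the female mean was higher in each strain. The log2 fold change was 0.30 ± 0.062 in B6 (edgeR adjusted p = 0.00105) and 0.29 ± 0.063 in C3 (edgeR adjusted p = 0.00161).

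Pdgfrb encodes the receptor through which platelet-derived growth factor B drives stellate cells (gene 18596, chr18:61204804-61244721, plus strand). The C3 females had 11.9, 12.5, 11.6, 12.7 and 11.6 CPM and the C3 males 7.66, 8.47, 7.97, 11.2 and 9.28 CPM. These did not overlap, and at 0.42 ± 0.095 on the log2 scale (edgeR adjusted p = 0.00247) this was the largest sex difference of any member in C3. In B6 the females lay between 10.7 and 13.0 CPM and the males between 8.22 and 12.3 CPM, with a difference of 0.24 ± 0.092 (edgeR adjusted p = 0.0481) that stayed past 0.05 in 13 of 30 other settings.

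Des, the intermediate filament protein desmin, which smooth muscle also makes (gene 13346, chr1:75356867-75365154, plus strand), had the lowest counts. In B6 it averaged 4.62 ± 0.658 CPM in females and 3.67 ± 0.866 CPM in males, and in C3 3.71 ± 0.776 and 3.32 ± 0.671 CPM. The sexes overlapped in both strains, with log2 fold changes of 0.36 ± 0.13 in B6 (edgeR adjusted p = 0.0472, past 0.05 in 11 of 30 other settings) and 0.24 ± 0.14 in C3 (edgeR adjusted p = 0.188).

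Lrat encodes lecithin retinol acyltransferase, the enzyme that esterifies retinol for storage (gene 79235, chr3:82696504-82707896, minus strand). The B6 females had 91.8, 36.2, 47.1, 51.1 and 45.3 CPM and the B6 males 36.8, 39.1, 38.0, 35.0 and 41.0 CPM. The C3 females had 45.8, 20.5, 27.1, 25.2 and 23.4 CPM and the C3 males 24.4, 30.2, 22.7, 26.5 and 22.7 CPM. In each strain 1 female stood apart, at 2.04 times the mean of the other 4 in B6 and 1.91 times in C3, while the males were tight. The sex difference was 0.52 ± 0.21 on the log2 scale in B6 (edgeR adjusted p = 0.0706) and 0.16 ± 0.22 in C3 (edgeR adjusted p = 0.577). Without the 2 high livers, an alternative chosen after the data were seen, it was 0.22 ± 0.099 in B6 (edgeR adjusted p = 0.0993) and -0.077 ± 0.11 in C3 (edgeR adjusted p = 0.599). The 2 livers were in pools 3 and 2, and their other 9 members lay between 0.69 and 1.23 times the mean of the rest of their group.

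Stab1 and Stab2 encode the related scavenger receptors stabilin-1 and stabilin-2, the second of which takes up hyaluronan. Stab2 (gene 192188, chr10:86303955-86470687, minus strand) had 141, 148, 178, 153 and 165 CPM in the B6 females and 129.7, 132, 109.6, 125 and 119.7 CPM in the B6 males. In C3 the females had 157, 136, 151, 175 and 175 CPM and the males 130.2, 138, 145, 127 and 155 CPM. The B6 sexes did not overlap and the C3 sexes did, with log2 fold changes of 0.35 ± 0.061 (edgeR adjusted p = 2.8e-04) and 0.23 ± 0.062 (edgeR adjusted p = 0.00779). Stab1 (gene 192187, chr14:31952203-31981827, minus strand) averaged 61.6 ± 9.68 CPM in females and 48.3 ± 11.1 CPM in males of B6, and 58.2 ± 10.3 and 48.4 ± 8.91 CPM in those of C3. Its sexes overlapped in both strains, but the female mean was higher in every pool, and the differences were 0.37 ± 0.061 in B6 (edgeR adjusted p = 1.8e-04) and 0.25 ± 0.062 in C3 (edgeR adjusted p = 0.00447).

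Clec4g (gene 75863, chr8:3716071-3720651, minus strand) had 75.1, 75.9, 81.0, 93.4 and 92.5 CPM in the B6 females and 70.5, 72.1, 65.6, 64.3 and 73.1 CPM in the B6 males. Every B6 female was above every B6 male, and the fitted log2 fold change was 0.27 ± 0.059 (edgeR adjusted p = 0.00197). In C3, where the females spread from 65.6 to 97.9 CPM and the males from 61.2 to 81.8 CPM, the groups overlapped and the difference was 0.19 ± 0.060 (edgeR adjusted p = 0.0166). Pecam1 encodes the adhesion molecule CD31, which marks endothelium in all vessels (gene 18613, chr11:106515527-106576595, minus strand). In B6 the mean was 33.3 ± 3.53 CPM for females and 27.7 ± 2.08 CPM for males, and in C3 it was 28.1 ± 2.82 and 23.9 ± 1.91 CPM. Its sex difference was 0.26 ± 0.060 in B6 (edgeR adjusted p = 0.00253) and 0.28 ± 0.062 in C3 (edgeR adjusted p = 0.00175), and all 5 females of each strain were above the median of its males.

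Lyve1, a hyaluronan receptor of lymphatic and sinusoidal endothelium (gene 114332, chr7:117994121-118006467, minus strand), was the endothelial member with no sex difference past the test. The B6 females had 8.46, 9.77, 11.8, 15.0 and 12.7 CPM and the B6 males 7.85, 13.2, 9.45, 6.00 and 12.1 CPM. The C3 females had 6.64, 5.25, 7.01, 4.14 and 5.25 CPM and the C3 males 7.74, 7.49, 5.57, 5.39 and 5.14 CPM. The sexes were interleaved in both strains. The differences were 0.25 (95% interval -0.14 to 0.64, edgeR adjusted p = 0.315) in B6 and -0.077 (-0.49 to 0.34, edgeR adjusted p = 0.782) in C3, intervals wide enough to include the sex differences of the other endothelial members.

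**Figure D3:**
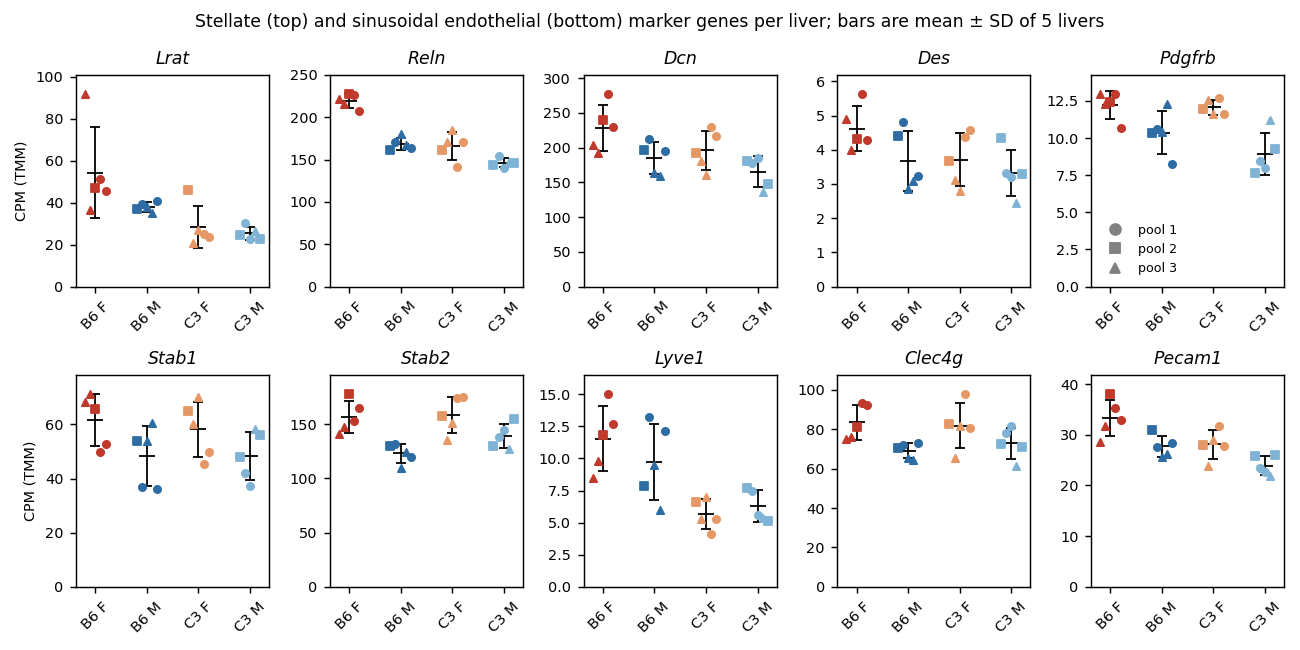
CPM of each marker gene in every liver, with stellate genes in the top row and endothelial genes in the bottom row, the marker shape giving the sequencing pool and the bars the mean ± SD of 5 livers. The 2 high Lrat livers (91.8 and 45.8 CPM), the low Lyve1 values of C3 and the dependence of Stab1 on the pool can be seen.

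Between the strains the members divided. Lyve1, Lrat, Reln, Dcn and Pecam1 were lower in C3 than in B6 at an adjusted p under 0.05 in both sexes, and no member was higher in either sex. That made 5 of 10 in each sex, where 15.3% (females) and 17.5% (males) of all genes tested were lower. By the stricter rule 1 member was called in females (Lyve1), where 9.40% of all genes were called, and 0 in males by edgeR and by DESeq2, where 9.64% were. The unadjusted p was under 0.05 for 6 members in each sex, and for 41.9% (females) and 44.3% (males) of all genes. The female and the male comparison share no livers.

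Lyve1 was lower in C3 females than in B6 females by 0.98 ± 0.19 on the log2 scale (log2 fold change -0.98, fold 0.505, edgeR adjusted p = 5.5e-04). No C3 female, of which the highest had 7.01 CPM, reached the lowest B6 female at 8.46 CPM. In males the log2 fold change was -0.66 ± 0.20 (edgeR adjusted p = 0.0136), and the strains overlapped because 1 B6 male had 6.00 CPM. The call in females rested on nearly all of the livers compared: leaving out B6 female 2, 3, 4 or 5 or C3 female 1, 2, 4 or 5 put the adjusted p above 0.001, and over 30 other settings it stayed between 2.6e-06 and 0.00282.

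Lrat had a log2 fold change of -0.95 ± 0.22 in females (edgeR adjusted p = 0.00238) and -0.60 ± 0.22 in males (edgeR adjusted p = 0.0424). It stayed past 0.05 in all 30 other settings in females but in only 19 of 30 in males. Every B6 male, the lowest at 35.0 CPM, was above every C3 male, the highest at 30.2 CPM. In females the strains overlapped only through the high C3 female, which at 45.8 CPM was above 2 of the 5 B6 females. Without the 2 high livers the log2 fold change was -0.89 ± 0.11 in females (edgeR adjusted p = 1.2e-05) and -0.59 ± 0.096 in males (edgeR adjusted p = 1.7e-04). Lrat was then called in both sexes while Lyve1 was not (edgeR adjusted p = 0.00131 in females). The 2 livers had been left out for their own Lrat values, so these calls are no separate evidence. No male liver was left out, yet the SE in males fell from 0.22 to 0.096 through the spread that all groups share. Without B6 female 1 alone it was -0.65 ± 0.16 in females (edgeR adjusted p = 0.00522), and without C3 female 1 alone it was -1.20 ± 0.19 (edgeR adjusted p = 1.3e-04).

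Reln did not overlap between the strains in either sex. Its log2 fold change was -0.41 ± 0.058 in females (edgeR adjusted p = 2.1e-05) and -0.19 ± 0.059 in males (edgeR adjusted p = 0.0166). Strains without overlap and with C3 lower were thus seen for Lyve1 and Reln in females and for Lrat and Reln in males, where 6.47% and 8.40% of all genes showed this. Dcn was lower in C3 by similar amounts in both sexes, at -0.22 ± 0.062 in females (edgeR adjusted p = 0.00918) and -0.21 ± 0.063 in males (edgeR adjusted p = 0.0132). Pecam1 was likewise lower, at -0.24 ± 0.060 (edgeR adjusted p = 0.00432) and -0.26 ± 0.062 (edgeR adjusted p = 0.00287).

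For Stab1, Stab2 and Clec4g no strain difference passed the test, and their 95% intervals on the log2 scale were narrow. In females they ran from -0.21 to 0.043 for Stab1, from -0.11 to 0.14 for Stab2 and from -0.16 to 0.093 for Clec4g. In males they ran from -0.10 to 0.16, from 0.0071 to 0.27 and from -0.084 to 0.17. Each of these excludes the fitted log2 fold changes of Pecam1, Lrat and Lyve1 in that sex. Des (-0.34 ± 0.13 in females, edgeR adjusted p = 0.0578) and Pdgfrb (-0.019 ± 0.092 in females, edgeR adjusted p = 0.903) did not pass either, nor did they in males.

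The size of the sex difference was then compared between the strains. No member passed the sex-by-strain interaction in edgeR by either rule, 0.401% of all genes were called, and 2.96% passed an adjusted p of 0.05. DESeq2 called none. At an unadjusted p under 0.05, which 16.1% of all genes had, there was 1 member, Reln, whose fitted sex difference was smaller in C3 by 0.22 ± 0.082 on the log2 scale (interaction -0.22, edgeR adjusted p = 0.185). For Lrat and Lyve1 the interaction intervals were wide, from -0.99 to 0.29 and from -0.90 to 0.24.

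Other markers of the same cell types showed the same kind of sex difference in these same livers. Their lists were chosen beside the members, with earlier results of these data known. Of 20 further stellate markers 13 in B6 and 12 in C3 were higher in females at an adjusted p under 0.05 and none was lower, with median log2 fold changes of 0.36 and 0.29. Over all genes tested, 16.2% were higher and 18.4% lower in B6 females, and 20.1% and 19.9% in C3 females. Lum, another small matrix proteoglycan, was called in B6, at 9.31 ± 1.59 CPM in females and 6.31 ± 0.941 in males (log2 fold change 0.56 ± 0.087, edgeR adjusted p = 9.4e-05). Pdgfra, the other PDGF receptor, was called in C3, at 16.6 ± 0.971 CPM in females and 11.6 ± 0.436 in males (0.52 ± 0.062, edgeR adjusted p = 4.2e-06). Of 14 further sinusoidal endothelial markers 10 in each strain were higher in females, with medians of 0.31 and 0.24. Maf, a transcription factor of these cells, was called in B6 (0.55 ± 0.076, edgeR adjusted p = 2.3e-05). Cd36, a fatty acid and scavenger receptor that hepatocytes also make, was called in C3 at 95.1 ± 15.6 CPM in females against 23.1 ± 5.58 in males, but not in B6, where its log2 fold change was -0.10 ± 0.21 (edgeR adjusted p = 0.73). This sex-by-strain interaction was itself called (2.14 ± 0.30, edgeR adjusted p = 4.3e-04), and the C3 males were below the B6 males, at 143.6 ± 38.7 CPM, without overlap (-2.63 ± 0.22, edgeR adjusted p = 3.2e-08). Of 12 general endothelial markers 6 in each strain were higher in females, and Tie1, named after its values were seen, was lower in C3 females (edgeR adjusted p = 0.0404).

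Between the strains the further stellate and sinusoidal endothelial markers were mixed, whereas of the 12 general endothelial markers 4 were lower in C3 females and 7 in C3 males at an adjusted p under 0.05 and none was higher (medians -0.21 and -0.22). Of the further stellate markers 10 were lower and 4 higher in C3 females at an adjusted p under 0.05, and 5 were lower and 3 higher in C3 males. Of all genes tested 15.3% were lower and 17.7% higher in C3 females, and 17.5% were lower and 17.0% higher in C3 males. Adamtsl2, a secreted matrix protein, was at 2.17 ± 0.660 CPM in C3 females against 5.16 ± 1.28 in B6 females (log2 fold change -1.27 ± 0.19, edgeR adjusted p = 4.3e-05), without overlap in either sex. Sparc, a collagen-binding matrix protein, was the opposite, at 78.6 ± 6.51 CPM in C3 females against 50.8 ± 7.33 in B6 females (0.63 ± 0.075, edgeR adjusted p = 2.8e-06). Among the further sinusoidal endothelial markers 7 were lower and 2 higher in C3 females, and 6 lower and 3 higher in C3 males. Clec1b, a C-type lectin, was called lower in C3 in both sexes (-0.55 ± 0.10 in females, edgeR adjusted p = 4.2e-04, and -0.53 ± 0.11 in males, edgeR adjusted p = 8.7e-04), and the lectin Cd209b was called higher in both (2.06 ± 0.17 and 1.57 ± 0.19, edgeR adjusted p = 3.0e-08 and 2.7e-06).

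Ligands and partners of the members were read from further lists. Retinoid genes are the setting of Lrat, and 13 were tested. At an adjusted p under 0.05, 3 were higher and 3 lower in B6 females, and 2 higher and 3 lower in C3 females. Of all genes tested, 16.2% were higher and 18.4% lower in B6 females, and 20.1% and 19.9% in C3 females. Aldh1a1, a retinaldehyde dehydrogenase of hepatocytes, was called lower in C3 females, at 939 ± 128 CPM against 1799 ± 209.6 in C3 males (-0.94 ± 0.14, edgeR adjusted p = 6.0e-05). Of 4 tested genes of reelin signalling, the receptor Vldlr was called higher in females, at 12.0 ± 7.16 CPM against 2.35 ± 2.14 in B6 (2.41 ± 0.41, edgeR adjusted p = 2.2e-04) and 4.81 ± 2.16 against 0.588 ± 0.253 in C3 (3.07 ± 0.51, edgeR adjusted p = 1.8e-04). Its adaptor Dab1 was called higher in C3 than in B6, at 1.79 ± 0.355 CPM against 0.114 ± 0.0549 in females. In the B6 female libraries 3 counts amount to about 0.064 to 0.104 CPM, so the B6 value is near the limit of detection. Pdgfb, the ligand of Pdgfrb, was at 0.422 ± 0.145 CPM in C3 males and 0.865 ± 0.172 in B6 males, without overlap (-0.99 ± 0.24, edgeR adjusted p = 0.004, not called). In the hyaluronan list, which holds 4 tested genes, the hyaluronan receptor Cd44, carried mainly by blood cells, was called lower in C3 in both sexes, at 3.55 ± 1.13 CPM against 19.1 ± 5.75 in females (-2.41 ± 0.21, edgeR adjusted p = 3.6e-08), as was the hyaluronidase Hyal1 in females (-0.78 ± 0.11, edgeR adjusted p = 3.6e-05).

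Of 11 tested genes of stellate activation, 3 in B6 and 7 in C3 were higher in females at an adjusted p under 0.05, and Ctgf, also named after its values were seen, was lower in C3 females (edgeR adjusted p = 0.0278). Over all genes tested, 16.2% were higher and 18.4% lower in B6 females, and 20.1% and 19.9% in C3 females. Postn, the matrix protein periostin, was called in both strains, at 21.5 ± 5.39 CPM in B6 females against 12.0 ± 1.58 in B6 males (0.82 ± 0.11, edgeR adjusted p = 2.4e-05). Vim, the intermediate filament protein vimentin, which blood cells share, was called lower in C3 in both sexes (-0.73 ± 0.12 in females, edgeR adjusted p = 1.5e-04). Among 8 signals that endothelial cells send to hepatocytes, 3 were higher and 2 lower in B6 females at an adjusted p under 0.05, and 2 were higher and 0 lower in C3 females. The same shares of all genes stand beside these counts. Bmp2, which controls hepcidin, was called higher in B6 females than in B6 males (0.63 ± 0.12, edgeR adjusted p = 3.9e-04). Bmp6, its partner in that role, was called lower in C3 females than in B6 females, at 4.53 ± 1.11 CPM against 8.06 ± 1.25 (-0.82 ± 0.14, edgeR adjusted p = 1.6e-04). Kitl, stem cell factor, was called lower in C3 in both sexes, at 1.21 ± 0.342 CPM against 6.78 ± 0.849 in males (-2.43 ± 0.13, edgeR adjusted p = 4.7e-11). Its sex difference turned with the strain. Kitl was called lower in B6 females, at 4.56 ± 0.510 CPM against 6.78 ± 0.849 in B6 males without overlap (-0.56 ± 0.11, edgeR adjusted p = 8.3e-04), and was higher in C3 females at an adjusted p under 0.05 without being called (0.61 ± 0.14, edgeR adjusted p = 0.00229). The interaction was called (1.18 ± 0.18, edgeR adjusted p = 8.2e-04).

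**Figure D4:**
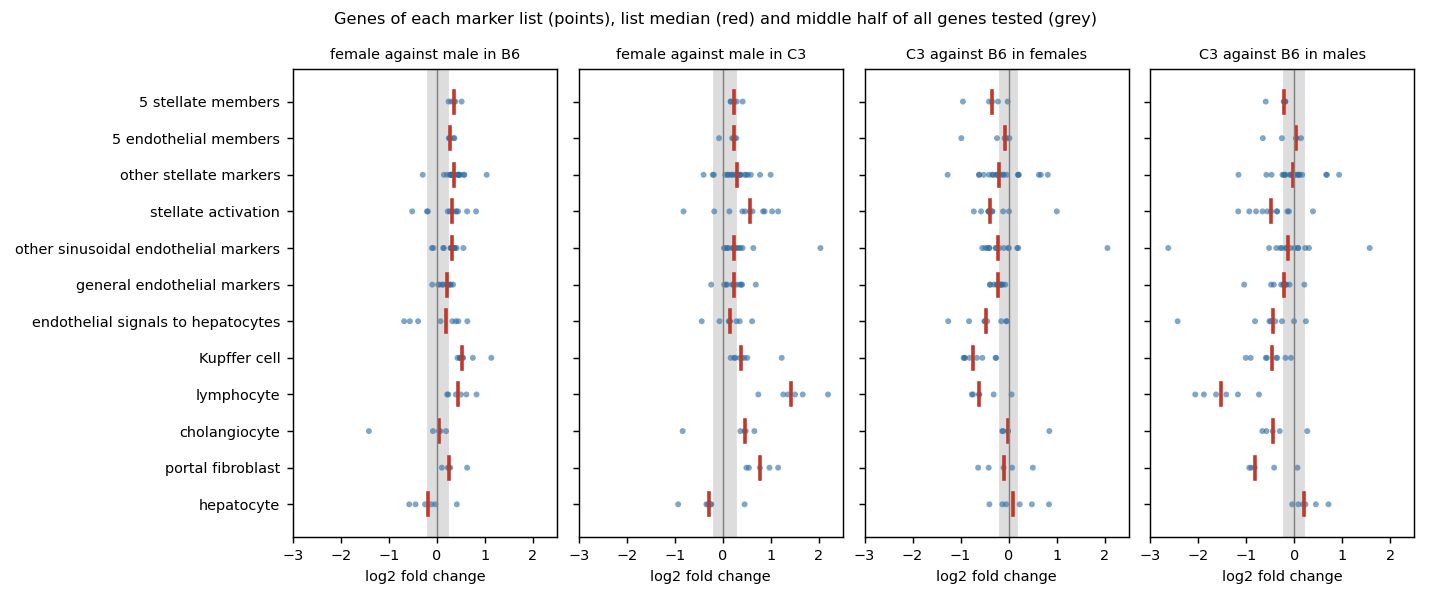
Log2 fold change of every tested gene of each marker list (points) in the 4 comparisons, with the list's median in red and the lower to upper quartile of all genes tested in grey. The medians of all lists shown but the hepatocyte list lie to the right of 0 in both sex comparisons. In the strain comparisons the list medians lie to the left of 0, except those of hepatocytes and, in males, of the endothelial members.

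Markers of other cells moved with the same groups, and their part in the results above was not tested. All 8 Kupffer cell markers were expressed and none was at 0. In females 7 in B6 and 5 in C3 were higher (medians 0.51 and 0.38), and 5 were lower in C3 in each sex (medians -0.74 and -0.48). Over all genes tested, 16.2% in B6 and 20.1% in C3 were higher in females. Lower in C3 were 15.3% of all genes in females and 17.5% in males. Their summed level was 521 to 664 TPM for females and 303 to 449.6 TPM for males of B6, and 340.3 to 493 and 216 to 322 TPM for those of C3. Of 6 tested lymphocyte markers 1 in B6 and 6 in C3 were higher in females, at a summed level of 3.74 to 16.5 TPM over all livers, and 1 was lower in C3 females and 6 in C3 males than in B6 (medians -0.61 and -1.53). For the portal fibroblasts, which share Dcn, 4 of 5 tested markers were higher in C3 females than males and 0 in B6, at a summed level of 3.23 to 9.64 TPM over all livers, while 1 was higher in C3 than in B6 in females and 3 were lower in males. Both tested erythroid markers differed by sex. Alas2, the heme synthesis enzyme of red cells, was called lower in females, at 24.6 ± 4.91 CPM against 165 ± 18.0 in B6 (-2.76 ± 0.14, edgeR adjusted p = 3.7e-11) and 21.8 ± 5.85 against 214 ± 12.0 in C3 (-3.28 ± 0.14, edgeR adjusted p = 5.6e-12), without overlap. Klf1, an erythroid transcription factor, was called higher in B6 females (0.66 ± 0.12, edgeR adjusted p = 5.5e-04) and was higher in C3 females without being called (0.63 ± 0.13, edgeR adjusted p = 0.00108). Hepatocyte markers divided, with Alb higher in females (0.42 ± 0.090 in B6, edgeR adjusted p = 0.00168) and 2 of 6 in B6 and 4 of 6 in C3 lower. Of 5 tested cholangiocyte markers 0 in B6 and 2 in C3 were higher in females, and Sox9 was lower in both. Of 2 tested smooth muscle markers, which accompany Des, 1 in B6 and 2 in C3 were higher in females, at a summed level of 2.64 to 7.22 TPM.

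The sequencing pool moved several members by as much as sex did. In a test of the pool term, added after the data were seen, 6 of 10 members passed an adjusted p of 0.05, where 60.1% of all genes did. Stab1 was 0.43 higher on the log2 scale in pool 2 and 0.52 higher in pool 3 than in pool 1 (edgeR adjusted p = 1.1e-07), and Dcn was 0.12 and 0.37 lower (coefficients -0.12 and -0.37, edgeR adjusted p = 1.7e-05). Clec4g (adjusted p = 4.1e-04), Pecam1 (0.00378), Stab2 (0.00839) and Des (0.0126) passed in edgeR as well, whereas Lrat, Reln, Lyve1 and Pdgfrb did not. Each group had 1 or 2 livers in every pool, and within pools the female mean of Stab2 was higher by 0.34, 0.46 and 0.30 in B6 and by 0.31, 0.14 and 0.17 in C3 (log2, pools 1 to 3). For Lrat in C3 the direction differed between pools, at -0.12, 0.96 and -0.15, with the high liver in pool 2.

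Whether markers of 1 cell type rose and fell together from liver to liver was examined after group and pool means had been removed from log2 CPM. None of the 45 pairs passed a permutation test adjusted over all pairs, and 21 of the 45 coefficients were above 0. The largest were Reln with Lyve1 (Pearson r = 0.669) and Dcn with Des (r = 0.646, Spearman rho = 0.657), each with an adjusted p of 0.129 by permutation. Without the 2 livers farthest from the median, r was 0.437 for Reln with Lyve1 and 0.637 for Dcn with Des. Among the 10 stellate pairs the median r was 0.071, and among the 10 endothelial pairs it was 0.15. With only group means removed, 5 pairs passed, of which 3 were positive. Those 5 pairs were Dcn with Stab1 (negative), Dcn with Des, Stab1 with Clec4g (negative), Dcn with Clec4g, and Stab2 with Pecam1. The non-member genes most like each member with group and pool removed, given as a description over 20 livers that share pools, were Rubcn for Clec4g (r = 0.929, rho = 0.929), Gatad2b for Stab2 (r = 0.903), Slfn8 for Stab1 (r = 0.876), Cct6b for Reln (r = 0.865), Ctps2 for Pdgfrb (r = 0.852), Ppp2r3d for Lrat (r = 0.850), Nhlrc3 for Pecam1 (r = 0.835), Tomm6 for Dcn (r = 0.835), Gm13251 for Lyve1 (r = 0.815) and Copz1 for Des (r = 0.805). Each of these genes had the highest r among all non-member genes tested, a search that favours high values. Their likeness was not tested. With only group removed, r for Stab1 with Slfn8 turned to -0.589, so that this likeness rests on removing pool. For the other 9 it was between 0.628 and 0.940, but these values also carry the pool means that genes share and cannot back a likeness.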

How the data were processed

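Strand-specific, ribosomal RNA-depleted libraries of 20 livers were sequenced by the authors in 3 pools, trimmed with Cutadapt 1.9.1, aligned to mm9 with STAR 2.5.1b and counted by strand with featureCounts (Subread 1.5.0-p1), without multimapping or multi-overlapping reads. The authors deposited raw counts per gene and TPM values, in which a count is divided by a gene length and scaled per library. Groups came from the sample labels. In R 4.3.3, edgeR 4.0.16 was run with filterByExpr, TMM and a quasi-likelihood fit of group and pool, with Benjamini-Hochberg adjustment over 13704 genes. Correlations were tested by two-sided permutation within groups (100000 resamples). Pipelines were tested on simulated data. Alternatives used DESeq2 1.42.0 and limma 3.58.1 on log2(TPM + 1) or log2(TPM + 0.1), other normalizations, filters, thresholds and covariates, a replicate block, and each liver left out. The members and gene lists were chosen with earlier results of these data known. Beyond the 10 members, genes were named from those called in a list (up to 4, by fold change), otherwise the one with the smallest p. The genes most correlated with a member were named too. Not every gene called in a list is named. A gene selected by this rule is not reported here.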

Additional observations from a re-analysis of the deposited data

Results flagged for a closer look

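Dixon's test was applied to each member in each group of 5 livers, 40 groups in all, and chance alone marks about 1 group in 20. It marked 2 values, both of Lrat and both above the critical value of 0.71. In B6 females, replicate 1 had 91.8 CPM and the other 4 livers had 36.2 to 51.1 CPM, a gap of 0.733 of the group's range. In C3 females, replicate 1 had 45.8 CPM against 20.5 to 27.1 CPM, a gap of 0.740. The livers were in different pools, and no other member was marked in them.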

How the results depend on the processing

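No difference that passed an adjusted p of 0.05 reversed its direction in the alternatives run. Values of single members with a test kept their side of the 0.05 threshold in 1356 member-by-setting results, lost it in 77 and gained it in 20, and 37 values that had passed no threshold changed sign. Without pool in the model, members past an adjusted p of 0.05 numbered 2 and 1 for sex in B6 and C3, and 3 and 1 for strain in females and males. The call of Lyve1 in females was lost (0 called). Over all genes the calls fell too without pool, from 869 to 421 and from 945 to 482 for sex in B6 and C3. For strain they fell from 1288 to 815 in females and from 1321 to 881 in males. Fits of only the groups compared called 0 members between strains in females and 1 (Lrat) in males, where 876 and 1102 genes were called in all. DESeq2 called 2 between strains in females, Lyve1 and Lrat, among 1583 genes called. The limma fit on log2(TPM + 0.1) called 1 (Pdgfrb) for sex in C3, among 1132 genes called. An adjusted p under 0.05 with no fold limit gave 8, 7, 5 and 5 members in the order above, and with the fold limit it gave 2 and 2 between the strains (Lyve1 and Lrat). Leaving out 1 liver at a time gave between 0 and 1 called between strains in females. Without the 2 livers chosen for their high Lrat, 1 member, Lrat, was called between strains in males, where 1255 genes were called in all. With only group means removed 5 member pairs were correlated. Scaling CPM by the implied length in place of TPM kept 8 of 10 members at their rank in level and exchanged Lrat and Stab1. That length is itself a count divided by its TPM, so the order was close to fixed beforehand and this is no separate check. The causes of these changes were not tested, and the fits that use fewer livers also have smaller samples.

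Replicate numbers were shared between groups. After group and pool were removed, same-numbered livers had mean correlations between -0.013 and 0.0997. With only group removed, these were 0.22 in females and 0.18 in males between the strains, and -0.19 in B6 and -0.24 in C3 between the sexes. The main fit did not pair the livers. With a replicate block added to group and pool, 1 member was called between strains in females, as without it, but it was Lrat (edgeR adjusted p = 9.4e-04) and not Lyve1 (edgeR adjusted p = 0.00121). The other counts of called members were 0 with the block.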
